A study of Mus musculus with 8 samples.

Results

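The genes described here are the expressed Zfp zinc finger genes of mouse cortical neural stem and progenitor cells (NSPCs): protein-coding genes with a symbol of Zfp followed by a number and a mean of at least 5 TPM over all 8 libraries. TPM is a transcript abundance corrected for the length of the transcript and summing to the same total in every library. Members were chosen by their measured mean level and their symbol. The rule kept 281 of 397 protein-coding Zfp genes, from a table of 55385 genes. It used the level over both groups together, so levels are given as a description, while the difference between the groups was not used in the choice. All 281 members also passed the filter on low values of the test used below. Just inside the threshold stood Zfp975 at 5.09 TPM, Zfp777 at 5.18 TPM and Zfp607a at 5.28 TPM. Just outside stood Zfp583 at 4.99 TPM, Zfp407 at 4.89 TPM and Zfp781 at 4.89 TPM.

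The cells were isolated by flow sorting from mouse brain cortex on postnatal day 7. The 4 iKO libraries came from mice with Nestin-CreERT2, a tamoxifen-inducible Cre recombinase driven by the Nestin promoter, together with floxed Ash2l (Ash2lf/f) and a tdTomato reporter. The 4 WT libraries came from mice that also carried Nestin-CreERT2 and tdTomato but not the floxed alleles. ASH2L is shared by the MLL and SET1 enzyme complexes, which place methyl groups on lysine 4 of histone H3, and the comparison asked which transcripts differ after its deletion. The labels do not say whether a library came from 1 animal, so p-values rest on variation among these libraries only, and that variation may be technical.

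Most Zfp genes encode proteins with tandem C2H2 zinc fingers, in which each finger contacts a few bases of DNA. Many carry at their amino end a KRAB domain, which recruits the corepressor TRIM28 and through it SETDB1 and HP1 proteins, and many of these act on transposable elements or on imprinted loci. Genes of this class lie in clusters made by tandem duplication. A few genes with Zfp symbols encode other zinc fingers, such as the CCCH fingers of the ZFP36 family, which bind AU-rich elements in messenger RNA.

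The targeted gene, Ash2l, stood at 7.13 ± 0.714 TPM in iKO against 17.6 ± 1.33 TPM in WT (SD, n = 4), a log2 fold change of -1.20 (limma adjusted p = 3.82e-06). Marker genes of other cell types moved with the groups. Of the endothelial markers, 8 of 8 were higher in iKO, with a summed level of 804 to 866 TPM against 453 to 463 TPM in WT. Blood markers summed to 720 to 840 TPM in iKO against 69.8 to 81.0 TPM in WT, with 5 of 5 tested genes higher. Microglial markers summed to 364 to 378 TPM in iKO against 433 to 452 TPM in WT, with 5 of 6 genes lower. Neuroblast and neuron markers summed to 997 to 1041 TPM in iKO against 853 to 889 TPM in WT, with 4 of 7 genes higher and 2 lower. Oligodendrocyte lineage markers summed to 1720 to 1800 TPM in iKO against 1706 to 1725 TPM in WT, with overlapping groups, and of 6 tested 2 were higher and 3 lower. The NSPC markers Nes, Sox2, Pax6 and 11 others were all present. They summed to 4306 to 4415 TPM in iKO against 5084 to 5180 TPM in WT, and 6 of 13 tested were lower and 2 higher. The difference in this sum rests largely on Slc1a3, the most abundant of them, at 1241 TPM in iKO against 2039 TPM in WT. The 2 higher genes were Fabp7, at 925 TPM in iKO against 664 TPM in WT, and Nes, at 70.6 TPM against 59.6 TPM. No marker on these lists was at 0 in every library. All 4 listed Y-linked genes had lower levels in iKO, and Xist had a higher level. With a score of these sex-linked genes as a covariate, limma called 423 genes in all, 2 of them Zfp members, and Ash2l itself had an adjusted p of 0.142. The part of cell composition and of sex in the results below was not tested. In sorted bulk cells, fewer cells of a type and less RNA per cell cannot be told apart.

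As a class the Zfp genes were expressed at low to moderate levels. Their mean levels ran from 5.09 to 295 TPM, with a median of 15.4 TPM. A KRAB A-box pattern was found in the translated coding sequence of 162 members, and 119 had none. The pattern can miss KRAB domains: it was found in none of the Zkscan genes described below, whose symbol stands for KRAB and SCAN. Members without the pattern may therefore include KRAB genes. Here and below, with KRAB and without KRAB mean with and without this pattern. The median level was 13.3 TPM for members with the pattern and 19.98 TPM for those without. Members carried a median of 11 C2H2 finger patterns, 12 with KRAB and 7 without. Summed over all members, Zfp transcripts came to 7778.9 to 7849.3 TPM in the iKO libraries and 8012.6 to 8294.8 TPM in the WT libraries. The groups did not overlap. Members with KRAB summed to 3149.7 to 3183.6 TPM in iKO against 3313.9 to 3486.4 TPM in WT, again without overlap. These sums are on TPM as deposited, where the median log2 fold change of all genes tested was also below 0, at -0.06. Directions of small differences depended on scaling, as described below.

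Gene by gene, 134 of the 281 members (47.7%) changed, meaning an adjusted p under 0.05 in limma on log2(TPM + 1) over all 16413 genes tested. Among all genes tested 52.6% were called, so the share of Zfp genes was near the background. It was below the 59.0% of protein-coding genes with a mean of at least 5 TPM, a difference that was not tested. Of the 134, 38 were higher in iKO and 96 lower; the background was 20.7% higher and 31.9% lower. The median log2 fold change was -0.07, beside -0.06 over all genes tested. The groups did not overlap for 129 members, 39 with iKO above and 90 with iKO below, against a background of 49.2% in either direction, 19.2% above and 29.9% below. Changes were small: 112 of the 134 called members moved by less than 0.5 on the log2 scale in either direction, and 1 member, Zfp991, passed 1. The median absolute change of called members was 0.307, beside 0.369 for all called genes.

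Both KRAB classes held rises and falls. Of 162 with KRAB, 79 changed (48.8%), 24 higher and 55 lower, with a median of -0.08. Of 119 without, 55 changed (46.2%), 14 higher and 41 lower, with a median of -0.06. Both shares were near the 52.6% of all genes tested. The difference between the classes was not tested. Among the 66 tested Zfp genes under 5 TPM, 29 changed (43.9%), 10 higher and 19 lower.

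The excess of lower over higher members depended on how the columns were scaled. Trimmed mean factors gave 55 higher and 70 lower (background 26.5% and 25.3%), and quantile normalization gave 60 and 68 (background 51.2% called, 25.4% higher and 25.8% lower). Removal of a trend with transcript length and GC content gave 62 and 65 (background 27.2% and 23.9%). Zfp transcripts were longer than those of all tested genes, with a median of 3651 nt against 3062 nt, and poorer in GC, with 44.5% against 49.1%. The authors' deposited table called 68 members higher and 74 lower; among the genes tested here it called 53.9%, with 27.8% higher and 26.1% lower, and among all its genes with a fold change 33.9%. The median over members lay between -0.07 and 0.02 in these settings. Counted across all 5, 37 members were called higher every time and 55 lower every time (background 18.3% and 19.6%). These 92 members are called stable below, a criterion that was added after the values had been seen. All 5 settings rest on the same 8 libraries. A stable call can still be lost when a library is left out, as for Zfp58 and Zfp82, or with the sex score.

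**Figure D1:**
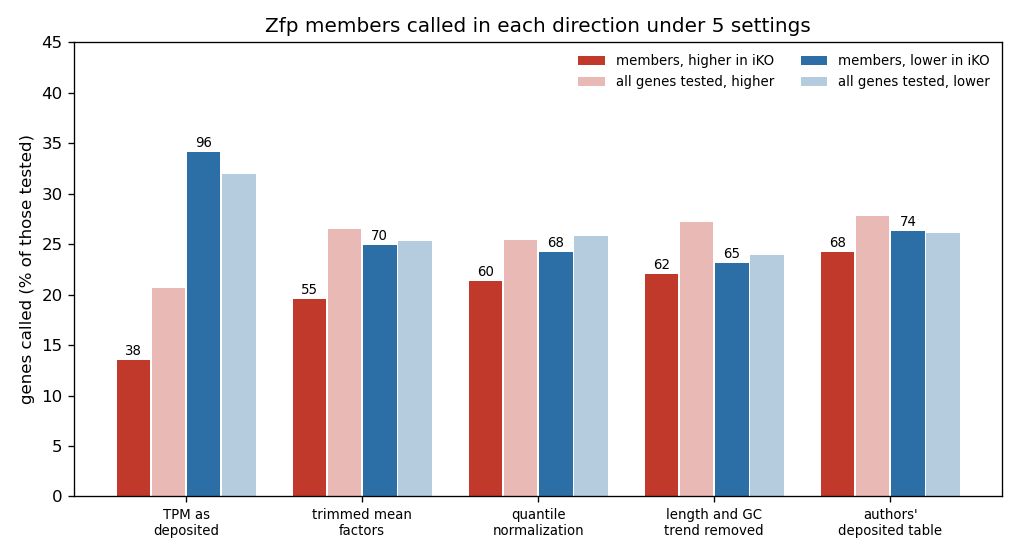
Share of Zfp members (full colour, counts above the bars) and of all genes tested (pale) called higher or lower in iKO, in percent, under 4 scalings of the TPM values and in the authors' deposited table. The 38 higher and 96 lower members on TPM as deposited became 55 and 70 or nearer to equal in the other settings.

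The largest falls came from genes of both classes. Among the 12 largest, 7 had KRAB and 5 did not, and 11 of the 12 were stable. Zfp984, a KRAB gene, stood at 3.58, 3.77, 4.36 and 3.42 TPM in the 4 iKO libraries and at 8.35, 7.89, 8.80 and 7.39 TPM in the 4 WT libraries. Every iKO library lay below every WT library. It fell by 0.93 on the log2 scale (SE 0.0813, limma adjusted p = 1.96e-05), and the authors' deposited table gave -0.997.

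Zfp963, also with KRAB, stood at 9.22, 9.97, 8.88 and 8.15 TPM in iKO against 17.2, 17.0, 16.4 and 18.02 TPM in WT. The groups were far apart relative to their spread, with a log2 fold change of -0.86 (SE 0.0632, limma adjusted p = 7.03e-06). It was the only called member that kept its call with the sex score as a covariate. Zfp652 encodes a repressor that binds the corepressor CBFA2T3 in human cells. It stood at 37.8, 38.1, 38.9 and 39.2 TPM in iKO against 58.9, 58.5, 59.6 and 60.3 TPM in WT. The spread within each group was narrow beside the gap between them, at a log2 fold change of -0.61 (SE 0.0281, limma adjusted p = 4.41e-07). It had the smallest adjusted p of the 281.

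Zfp467, which favours fat over bone formation in mouse marrow stromal cells, stood at 7.96, 8.22, 7.98 and 8.49 TPM in iKO against 15.2, 15.8, 11.9 and 16.8 TPM in WT. The lowest WT library still lay above the iKO group, and the log2 fold change was -0.79 (SE 0.0956, limma adjusted p = 0.00015). Zfp61, with KRAB, stood at 35.4, 32.8, 34.0 and 33.4 TPM in iKO against 51.0, 50.1, 51.5 and 50.6 TPM in WT. It was lower in all 4 iKO libraries, at -0.57 (SE 0.0329, limma adjusted p = 1.67e-06). The 11 stable falls also included Zfp354c, described next, and Zfp518a (-0.75), Zfp438 (-0.71), Zfp46 (-0.63), Zfp114 (-0.60) and Zfp69 (-0.57), the last known from a diabetes locus of obese mice.

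Zfp354c and Zfp322a had smaller falls in the authors' deposited table. Zfp354c stood at 26.5, 23.99, 27.3 and 23.2 TPM in iKO against 45.8, 45.8, 44.2 and 50.5 TPM in WT, a log2 fold change of -0.86 (limma adjusted p = 6.4e-06). The authors' deposited table gave it -0.22, in the same direction and past its threshold. Zfp322a fell from 21.4 ± 0.876 to 14.2 ± 0.647 TPM (SD, n = 4; -0.56, limma adjusted p = 1.9e-05), while the authors' deposited table gave -0.05 and did not call it. It is the only one of the 12 largest falls that was not stable.

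The 12 largest rises also held 7 genes with KRAB and 5 without, and 11 were stable. Zfp771 stood at 47.2, 49.3, 55.0 and 52.1 TPM in iKO against 36.3, 31.2, 33.2 and 26.3 TPM in WT. All iKO libraries were above all WT libraries. It rose by 0.67 on the log2 scale (SE 0.0915, limma adjusted p = 0.000306), and the authors' deposited table gave 0.61. Zfp511 stood at 49.6, 54.9, 50.4 and 48.5 TPM in iKO against 33.4, 36.6, 35.7 and 32.0 TPM in WT. Its groups were likewise apart, at a log2 fold change of 0.55 (SE 0.0544, limma adjusted p = 4.27e-05).

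Zfp706 encodes a small protein with a single C2H2 finger that promotes exit from self-renewal in mouse embryonic stem cells. It was among the most abundant members, at 345, 317, 337 and 334 TPM in iKO against 249, 247, 231 and 255 TPM in WT. The iKO libraries were higher in every case, with a log2 fold change of 0.44 (SE 0.0354, limma adjusted p = 1.24e-05). Rises without KRAB also included Zfp385b (0.54) and Zfp579 (0.52), and those with KRAB included Zfp931 (0.49), Zfp780b (0.42), Zfp560 (0.42), Zfp39 (0.40), Zfp955a (0.39) and Zfp934 (0.37).

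Zfp991 had the largest rise in TPM and is uncertain. It stood at 13.9, 18.7, 29.2 and 18.1 TPM in iKO against 7.92, 7.82, 10.03 and 8.95 TPM in WT, and the log2 fold change was 1.07 (SE 0.19, limma adjusted p = 0.00141). The authors' deposited table gave -0.15 and did not call it. Its transcript is at least 99.3% identical to those of Zfp992, Zfp993 and Znf41-ps, so reads could be split among 4 genes. Summed over the 4, the level was 33.7 ± 7.33 TPM in iKO against 14.6 ± 0.653 TPM in WT (SD, n = 4).

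**Figure D2:**
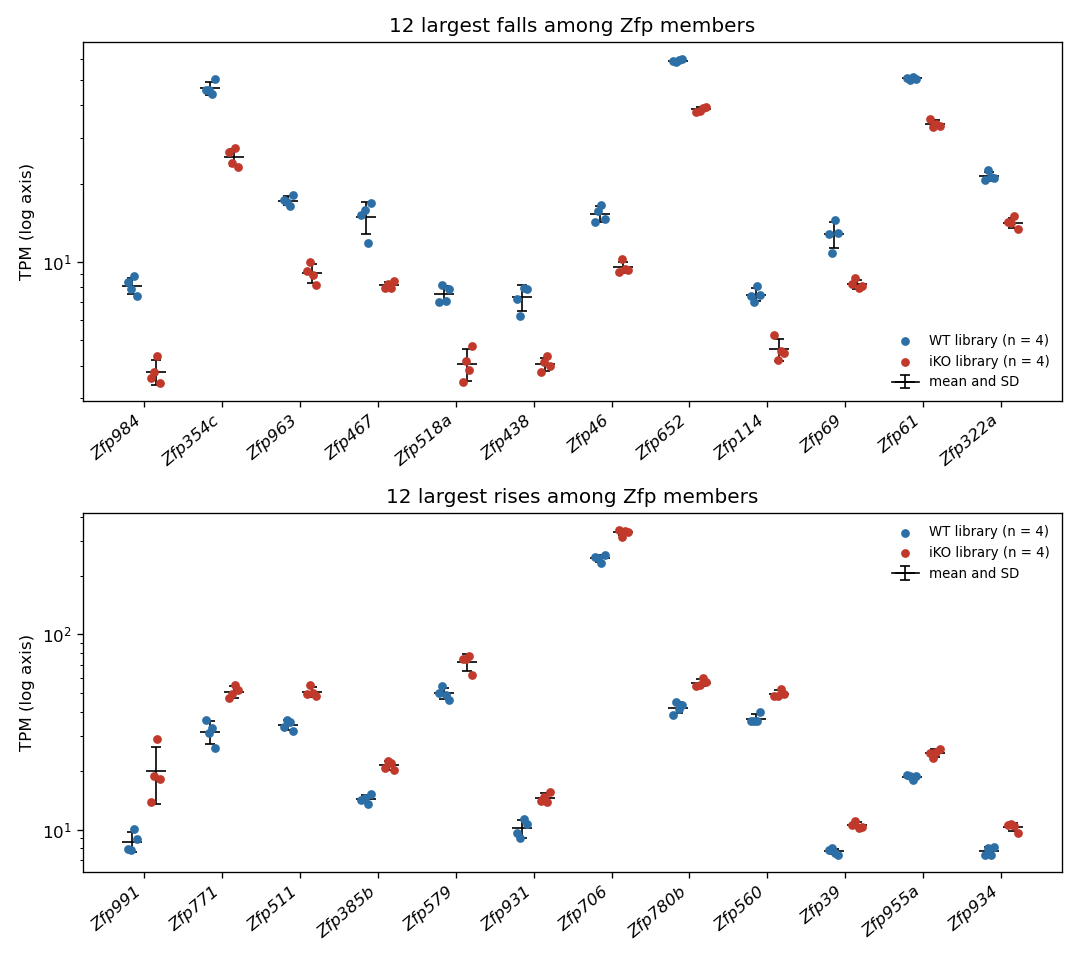
TPM (log axis) in each library for the 12 largest falls and the 12 largest rises among called members whose groups did not overlap. Points are libraries, 4 WT and 4 iKO per gene, with mean and SD; no WT and iKO points overlap for any gene shown, and Zfp991 has the widest spread in iKO (13.9 to 29.2 TPM).

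The promoters of 2 stable falls and 2 stable rises are shown because these 4 genes have some of the largest stable changes among members without a near-identical copy. Each is the RefSeq window of GRCm38.p6 from 250 bases before to 50 bases after the gene's start, on the gene's strand. Capitals mark matches, on either strand, to 6 short motifs: the GC box GGGCGG, the CCAAT box, the ETS core CCGGAAG, the cyclic AMP response element core TGACGTC, the YY1 core AGATGGC and the ZFP143 core ACTACAA. Zfp984 lies on the minus strand at chr4:147809739-147810038, and Zfp963 on the minus strand at chr8:69749913-69750212. Zfp771 lies on the plus strand at chr7:127244276-127244575, and Zfp511 on the plus strand at chr7:140036141-140036440.
Zfp984: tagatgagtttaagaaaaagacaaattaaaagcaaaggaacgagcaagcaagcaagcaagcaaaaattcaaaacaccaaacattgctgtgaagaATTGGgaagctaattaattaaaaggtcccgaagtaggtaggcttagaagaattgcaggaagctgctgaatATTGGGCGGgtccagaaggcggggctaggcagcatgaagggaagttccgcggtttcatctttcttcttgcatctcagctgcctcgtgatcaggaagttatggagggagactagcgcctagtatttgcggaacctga
Zfp963: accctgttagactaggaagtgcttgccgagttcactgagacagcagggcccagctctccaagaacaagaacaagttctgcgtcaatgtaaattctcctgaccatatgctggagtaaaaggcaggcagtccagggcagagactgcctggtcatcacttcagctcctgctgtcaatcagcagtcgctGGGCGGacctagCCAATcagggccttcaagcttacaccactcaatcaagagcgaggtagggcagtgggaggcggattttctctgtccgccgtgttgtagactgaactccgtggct
Zfp771: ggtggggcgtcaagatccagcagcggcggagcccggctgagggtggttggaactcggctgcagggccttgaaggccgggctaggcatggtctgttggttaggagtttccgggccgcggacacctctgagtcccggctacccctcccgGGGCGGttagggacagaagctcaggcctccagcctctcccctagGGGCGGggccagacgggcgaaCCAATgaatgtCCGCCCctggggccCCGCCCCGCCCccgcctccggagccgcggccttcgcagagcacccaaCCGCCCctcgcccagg
Zfp511: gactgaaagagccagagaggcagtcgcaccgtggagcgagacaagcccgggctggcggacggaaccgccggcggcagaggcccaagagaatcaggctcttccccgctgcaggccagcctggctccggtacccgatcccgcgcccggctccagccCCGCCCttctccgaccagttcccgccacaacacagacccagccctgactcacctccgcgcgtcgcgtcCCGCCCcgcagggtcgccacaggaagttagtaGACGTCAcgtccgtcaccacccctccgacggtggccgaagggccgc
The windows of the genes that fell had a GC content of 44.7% and 54.0% with 9 CpG dinucleotides each. Those of the genes that rose had 71.7% and 70.3% with 25 and 33. Zfp984 and Zfp963 have KRAB, while Zfp771 and Zfp511 do not. Over all member promoters the median GC content was 53.3% with KRAB and 61.0% without. In Zfp984 a CCAAT box and a GC box overlap. Both GC boxes and CCAAT boxes occur in Zfp984, Zfp963 and Zfp771, and Zfp511 has GC boxes and a cyclic AMP response element core.

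A RefSeq promoter was found for 235 of 281 members. Median GC content was 55.3% for 32 stable rises, 54.0% for 44 stable falls and 56.7% for 126 members not called. The GC box was present in 46.0% of member promoters, beside 63.0% of promoters of tested genes and 35.9% of all 27025 in the table. The CCAAT box was present in 46.8%, beside 39.1% and 37.9%. In KRAB members the CCAAT share was 52.8% and in the others 37.6%. For the ETS core the shares were 23.0% of members, 17.2% of tested genes and 9.12% of all promoters. The ZFP143 core stood at 7.66%, 4.22% and 3.45%, the YY1 core at 8.51%, 7.1% and 6.45%, and the cyclic AMP response element core at 3.4%, 5.52% and 3.33%. These are counts of letters in a window and not of bound sites.

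Of the 10 most abundant members, 8 fell and 2 rose, beside 31.9% lower and 20.7% higher over all genes tested; 5 of the falls and both rises were stable. Zfp207, which encodes the kinetochore and spindle factor BuGZ, was the most abundant at 295 TPM. It stood at 277, 280.4, 279.8 and 287 TPM in iKO against 312, 312, 302 and 308 TPM in WT. All iKO libraries lay below WT, but the step was small, at -0.13 (limma adjusted p = 0.000272), and it was not called after removal of the length and GC trend (-0.04). Zfp637 ranked next at 289 TPM and rose, with 306 to 317 TPM in iKO against 255 to 270.3 TPM in WT (0.25, limma adjusted p = 2.33e-05). Zfp422, which has a role in tooth development, fell from 272 to 274 TPM in WT to 243 to 245 TPM in iKO (-0.16, limma adjusted p = 1.69e-05). Zfp263 fell by 0.26 and Zfp24, needed for oligodendrocyte maturation in the mouse, by 0.16; the latter was not called after removal of the length and GC trend (-0.05).

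A list of 35 Zfp genes with known roles held 31 members. Of these 13 were lower, 0 were higher and 18 were not called by limma; 7 of the 13 were stable. The called share was 41.9%, beside 52.6% of all genes tested (20.7% higher and 31.9% lower). The authors' deposited table called 8 of the 31 higher and 12 lower, and limma gave 1 higher at an unadjusted p under 0.05. The other 4 genes of the list were under the level rule, with Zfp598 at 4.68 TPM, Zfp568 at 4.29 TPM, Zfp488 at 2.75 TPM and Zfp503 at 1.13 TPM.

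A pair of KRAB genes keep methylation at imprinted loci. Zfp57, the main one in the mouse, stood at 162, 179.7, 151 and 167 TPM in iKO against 224, 249.9, 230.5 and 225 TPM in WT. The groups were well apart, and it fell by 0.49 on the log2 scale (SE 0.0545, limma adjusted p = 8.22e-05). Zfp445, its partner in this role, stood at 89.2, 93.8, 87.1 and 96.0 TPM in iKO against 83.5, 97.4, 91.4 and 98.7 TPM in WT. Its groups overlapped, at -0.02 (SE 0.0561, limma adjusted p = 0.821), while the authors' deposited table gave 0.06 and called it. The difference between both genes was not tested. Zfp809, which silences murine retroviruses, stood at 17.2 ± 3.8 TPM in iKO against 13.6 ± 1.27 TPM in WT (SD, n = 4) and was not called (limma adjusted p = 0.104; 0.0449 without iKO replicate 4). The authors' deposited table gave Zfp809 0.26 and called it higher.

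The machinery that KRAB proteins recruit was taken from a list of corepressor and heterochromatin genes. Of 24 tested, 14 changed, 6 higher and 8 lower (58.3%, beside the background of 52.6%), with a median of 0.01. With trimmed mean factors the split was 9 higher and 5 lower (background 26.5% and 25.3%). Trim28, the corepressor itself, stood at 93.0 ± 6.76 TPM in iKO against 88.8 ± 5.64 TPM in WT (SD, n = 4), with overlapping groups (0.07, limma adjusted p = 0.398). Hdac1, a histone deacetylase gene, fell from 106 ± 0.929 to 64.2 ± 3.26 TPM (SD, n = 4; -0.71, limma adjusted p = 9.19e-07). Cbx1, which encodes an HP1 protein, rose by 0.37. Pphln1, of the silencing complex HUSH, rose by 0.27. Mphosph8 and Tasor, also of HUSH, were lower, at -0.31 and -0.21 (limma adjusted p = 0.00695 and 0.022). Neither Mphosph8 nor Tasor was called lower in all 5 settings. Suv39h1, a histone H3 lysine 9 methyltransferase gene, fell by 0.33, while its relative Suv39h2 rose by 0.40 (limma adjusted p = 0.00804). Zfp638, whose human counterpart brings HUSH to unintegrated retroviral DNA, stood at 75.1, 74.3, 82.5 and 79.5 TPM in iKO against 90.6, 110.3, 106 and 118 TPM in WT. Every iKO library was below WT (-0.44, limma adjusted p = 0.00116), but the authors' deposited table gave -0.04 and did not call it.

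ZFP410 is a C2H2 protein known for activating a single main target, Chd4, the ATPase of the NuRD complex. Zfp410 stood at 183, 178, 176 and 184 TPM in iKO against 198, 205, 207 and 202 TPM in WT. It was lower in every iKO library, by 0.17 on the log2 scale (SE 0.0229, limma adjusted p = 0.000267). Chd4 stood at 51.1, 57.1, 52.0 and 51.8 TPM in iKO against 64.6, 64.9, 63.1 and 61.9 TPM in WT. Its groups did not overlap either, at -0.26 (SE 0.0404, limma adjusted p = 0.000663), and both genes were lower in all 5 settings. Their relation was not tested.

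The 3 expressed members of the ZFP36 family, which bind AU-rich elements and bring the CCR4-NOT deadenylase to messenger RNA, were all lower in iKO. Zfp36 stood at 198, 179, 188 and 185 TPM in iKO against 204, 215, 214 and 201 TPM in WT (-0.15, SE 0.0355, limma adjusted p = 0.00595). It was not called with trimmed mean factors (-0.08) or after removal of the length and GC trend (-0.07). Zfp36l1 stood at 129, 128, 126 and 128 TPM in iKO against 139, 146, 148 and 140.3 TPM in WT (-0.16, SE 0.0261, limma adjusted p = 0.000727). Zfp36l2 stood at 22.5, 21.6, 21.6 and 22.5 TPM in iKO against 27.4, 27.3, 27.6 and 26.8 TPM in WT (-0.30, SE 0.0343, limma adjusted p = 0.000108). For these last genes the groups did not overlap and the calls were stable. Of 10 CCR4-NOT genes tested, 4 changed (beside the background of 52.6%), and 2 changed without iKO replicate 2. Of the 4, 1 was higher and 3 lower, beside 20.7% higher and 31.9% lower of all genes tested. This split depended on scaling. It was 2 higher and 1 lower with trimmed mean factors (background 26.5% and 25.3%) and 2 and 2 with quantile normalization (25.4% and 25.8%). It was 3 and 1 after removal of the length and GC trend (27.2% and 23.9%) and 1 and 2 in the authors' deposited table (27.8% and 26.1%). Cnot8, a catalytic subunit gene, fell by 0.24 and Cnot9 rose by 0.13 (limma adjusted p = 3.74e-05 and 0.0121).

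Several listed members act in neural development or in signalling of neural cells. Zfp110, also called NRIF, encodes a KRAB protein that binds the neurotrophin receptor p75. It stood at 37.6, 39.0, 40.4 and 43.5 TPM in iKO against 59.1, 62.2, 54.7 and 56.1 TPM in WT. The groups were apart, with a fall of 0.52 on the log2 scale (SE 0.0554, limma adjusted p = 6.51e-05). Zfp369, its close relative, was at 16.9 ± 0.801 TPM in iKO against 19.2 ± 1.83 TPM in WT (SD, n = 4) and was not called (limma adjusted p = 0.0678; 0.0453 without WT replicate 1).

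Zfp536 encodes an inhibitor of neuronal differentiation. It stood at 7.45, 7.74, 6.97 and 9.50 TPM in iKO against 10.2, 11.1, 11.1 and 10.7 TPM in WT, without overlap (-0.41, SE 0.0856, limma adjusted p = 0.00357). Zfp462, a chromatin gene with a neurodevelopmental disorder in humans, was at 8.2 ± 0.994 TPM in iKO against 10.1 ± 0.494 TPM in WT (SD, n = 4; -0.28, limma adjusted p = 0.0165), but was not called with trimmed mean factors (-0.21), quantile normalization (-0.17) or the length and GC trend removed (-0.14). Zfp365, at -0.28, had an adjusted p of 0.0196, which was 0.0528 without WT replicate 2 and 0.0534 without WT replicate 3, and it was not stable.

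Zfp335 is a microcephaly gene required for neural progenitor proliferation, and its product has been found with histone H3 lysine 4 methyltransferase complexes. It stood at 5.86, 6.83, 6.07 and 5.50 TPM in iKO against 4.96, 5.80, 5.08 and 5.89 TPM in WT. The groups overlapped, at 0.13 (SE 0.0814, limma adjusted p = 0.195), and quantile normalization called it higher (0.26). Zfp423 (0.09) and Zfp521 (-0.11), related regulators of neural development, were not called, and nor was Zfp703 (0.01). The authors' deposited table called Zfp521 lower, at -0.21.

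Of general regulators on the list, Zfp281, known from pluripotent cells, fell from 22.0 ± 0.619 to 18.6 ± 0.407 TPM (SD, n = 4; -0.23, limma adjusted p = 0.000949) and was stable. Its relative Zfp148 was at 20.002 ± 1.34 TPM in iKO against 20.1 ± 0.296 TPM in WT (-0.01, limma adjusted p = 0.911); the authors' deposited table gave 0.11 and called it. Zfp143, an activator that binds many promoters, was not called (0.13, limma adjusted p = 0.256), while the authors' deposited table gave 0.45 and called it higher. The double-stranded RNA binding gene Zfp346 (0.17), the ubiquitin ligase gene Zfp91 (0.08) and the RNA-binding gene Zfp106 (0.09) were not called on TPM as deposited and were called higher in each of the other 4 settings. Also not called were the ribosome assembly gene Zfp622 (0.31; limma adjusted p = 0.144, or 0.0469 without iKO replicate 1), Zfp746 (-0.10), Zfp451 (-0.04), Zfp326 (0.07; called higher after removal of the length and GC trend, at 0.16), Zfp830 (0.08) and Zfp292 (-0.08). The authors' deposited table called Zfp830 higher, at 0.16.

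Zfp genes that lie side by side did not all change in the same direction. In the GENCODE M21 annotation of GRCm38, neighbouring members no more than 500 kb apart were joined, a distance chosen after the values had been seen. This gave 11 clusters of at least 5 members, which hold 106 of the 281. In 9 of the 11 the called members included both directions, and in 2 all called members were lower. Over all 281 members 38 were higher and 96 lower, beside 20.7% higher and 31.9% lower of all genes tested. Among 141 neighbouring pairs, both genes were called in 24, in the same direction in 13 and in opposite directions in 11. Whether clusters or neighbouring pairs departed from the overall mix of calls was not tested. The median absolute difference in log2 fold change was 0.266 between neighbours and 0.241 over all pairs of members.

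The cluster with the lowest median, -0.26, lies on chromosome 7 and runs from Zfp180 to Zfp428. Of its 10 members 5 were lower, beside 31.9% of all genes tested: Zfp114 (-0.60), Zfp61 (-0.57), Zfp108 (-0.54), Zfp112 (-0.40) and Zfp94 (-0.39). All of these were stable, and Zfp428 was higher (0.22) and stable. A second cluster of chromosome 7, with 8 members, held Zfp780b (0.42), Zfp60 (0.31) and Zfp626 (0.22), which rose, beside Zfp974 (-0.44) and Zfp36 (-0.15), which fell. The background was 20.7% higher and 31.9% lower here too. The largest cluster, 18 members of chromosome 17, had 6 lower and 1 higher with a median of -0.15, beside a background of 31.9% lower and 20.7% higher. The cluster genes were named after their values had been seen.

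**Figure D3:**
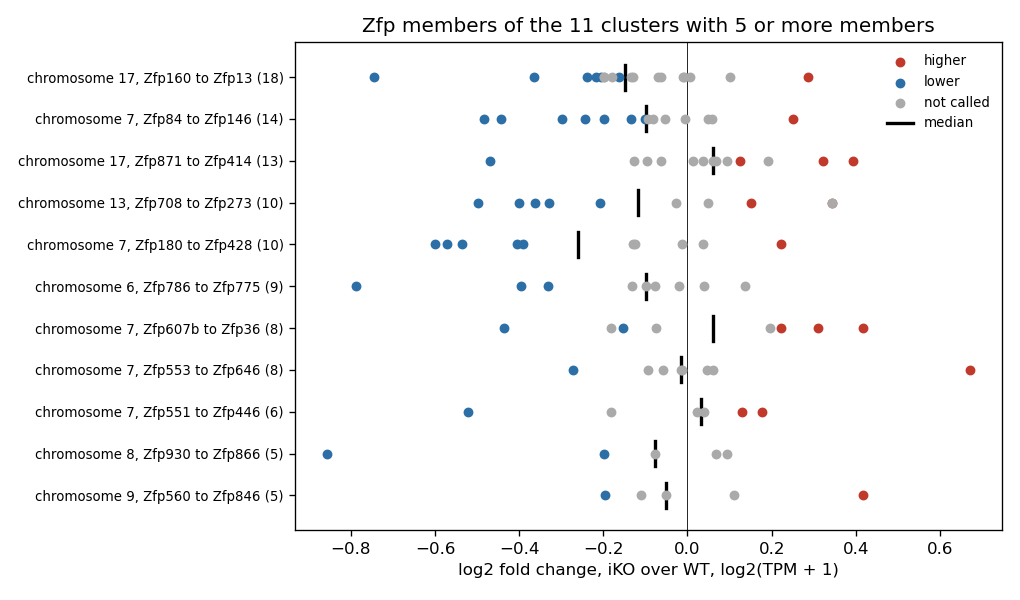
Log2 fold change (iKO over WT, log2(TPM + 1)) of each member in the 11 clusters with at least 5 members, with the number of members in brackets. Points are genes, coloured by their limma call, and the bar is the cluster's median, which lies between -0.26 and 0.06; 9 clusters hold called members of both directions.

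The TPM fold changes and those of the authors' deposited table come from the same libraries. Of members called in both, 107 of 108 had the same direction. The exception was Zfp68, a KRAB gene, at 50.5, 49.97, 51.4 and 53.8 TPM in iKO against 54.0, 57.3, 57.8 and 57.7 TPM in WT. Its iKO libraries lay below WT (-0.14, limma adjusted p = 0.0109), while the authors' deposited table gave 0.15 and called it higher; with trimmed mean factors it was -0.07 and not called. Signs differed for 56 members in all, and 11 of these were called in at least 1 source. The median over members was 0.00 in the authors' deposited table.

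**Figure D4:**
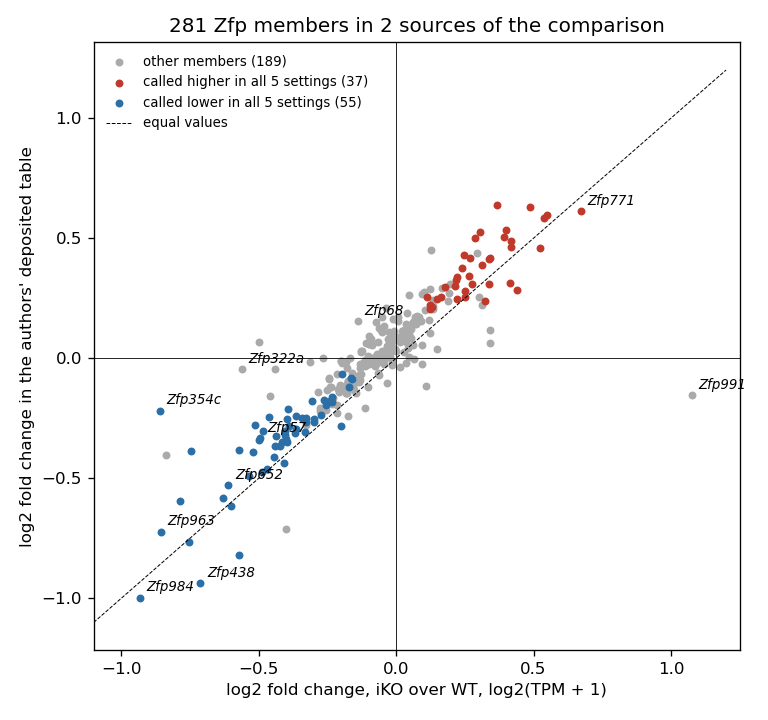
Log2 fold change of the 281 members on log2(TPM + 1) (horizontal axis) against the log2 fold change in the authors' deposited table (vertical axis), with a dashed line of equal values. The 37 stable rises (red) and 55 stable falls (blue) lie in the upper right and lower left; Zfp991, Zfp322a and Zfp354c lie far from the line.

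Near-identical copies make 20 members uncertain, since reads may be split between copies. Of these 10 were called, 7 higher and 3 lower, and the share called was near the background of 52.6% (20.7% higher and 31.9% lower). Zfp955a and Zfp955b, both members, are 98.4% identical. Zfp955a rose from 18.6 to 24.8 TPM (0.39, limma adjusted p = 9.08e-05), while Zfp955b averaged 25.8 TPM in iKO, against 27.6 TPM in WT, and was not called (-0.10, limma adjusted p = 0.183; called lower, at 0.0488, without iKO replicate 1). Their sum was 50.5 ± 2.5 TPM in iKO against 46.2 ± 0.958 TPM in WT (SD, n = 4). Zfp965 was listed at 0 in iKO replicate 3 and at 5.64, 8.08 and 7.40 TPM in the other iKO libraries, beside 6.76 to 8.71 TPM in WT, and was not called. Zfp58 and Zfp82 rose in the full set and are counted as stable. Each lost its call without any of 6 libraries (Zfp58 kept it without WT replicates 1 and 2, Zfp82 without iKO replicate 2 and WT replicate 4).

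Zinc finger genes under other symbols were taken by the same level rule. Zbtb genes pair C2H2 fingers with a BTB domain and Zscan genes with a SCAN domain. Zkscan genes are named for KRAB and SCAN domains, so this set is not free of KRAB genes. Of the 38 Zbtb, Zscan and Zkscan genes, 24 changed (63.2%, beside the background of 52.6%), with a median of -0.19. Of these 2 were higher and 22 lower, beside 20.7% higher and 31.9% lower of all genes tested. After removal of the length and GC trend 15 were called, 2 higher and 13 lower (background 27.2% and 23.9%), with a median of -0.07. That share, 39.5%, was below the 51.1% of all genes called in that setting. With quantile normalization it was 44.7%, beside 51.2%, with 2 higher and 15 lower (background 25.4% and 25.8%). Trimmed mean factors gave 2 higher and 17 lower (background 26.5% and 25.3%). The authors' deposited table gave 3 and 18 (background 27.8% and 26.1%). Lower calls outnumbered higher ones in each of these settings. Zbtb20, which acts in hippocampal and astrocyte development in the mouse, fell from 633 ± 8.56 to 473 ± 9.04 TPM (SD, n = 4; -0.42, limma adjusted p = 2.53e-07). Zbtb8a fell by 0.79 and Zbtb5 by 0.37, and Zscan26 rose by 0.54. The difference between these genes and the Zfp genes was not tested.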

How the data were processed

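The authors deposited TPM for 55385 genes in 8 libraries, each column summing to 1000000, so depth is unknown. Libraries were made by Smart-Seq2 from total RNA, per the labels' protocols. The authors' deposited table holds iKO over WT log2 fold changes, p-values, a test score and a mean normalized signal, per the file headers. No source used here names the aligner, annotation or build.

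Genes with at least 1 TPM in at least 4 libraries were tested by limma 3.58.1 (R 4.3.3) on log2(TPM + 1), with trend and robust moderation, two-sided, Benjamini-Hochberg adjusted over 16413 genes; the log2(TPM + 1) scale understates changes of low genes. Fits were tested on simulated data. Members and lists were chosen with earlier results of these data known. Named genes were the 12 largest rises and falls among called members without overlap, the 10 highest levels, a list of known roles, members at the threshold, with opposite signs in both sources or with near-identical copies, up to 4 genes of each other list, Ash2l and Chd4. Some genes meeting this rule are not printed. Trim28, Mphosph8, Tasor, Suv39h2, Slc1a3, Fabp7, Zfp229, Zfp970, the further cluster genes and the motifs were chosen after values were seen.

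The KRAB A-box pattern, finger patterns, lengths and GC content came from GENCODE M21 sequences (GRCm38), which hold 99.6% of the gene IDs, in place of the RefSeq proteins first planned. The KRAB pattern was widened after the reference sequences had been seen. Near-identical copies were aligned by blastn 2.17.0, with identity of 95% or higher across 50% or more of the shorter of both transcripts. The sex score subtracted log2(TPM + 1) of Xist from the average over Uty, Kdm5d, Eif2s3y and Ddx3y. Alternatives are given below.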

Additional observations from a re-analysis of the deposited data

Results flagged for a closer look

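Dixon's test for a value far from the rest of its group was run on 216 groups of 4 libraries. The groups came from the genes of the naming rule, some other genes named in the text and the summed Zfp level. In 12 groups a library stood apart. Chance gives about 1 in 20 groups. Among called members, Zfp579 stood at 61.9 TPM in iKO replicate 4 against 74.7 to 77.2 TPM in the other iKO libraries. Zfp637 stood at 306 TPM in iKO replicate 4 against 317 TPM in the others. Zfp560 stood at 39.8 TPM in WT replicate 4 (35.8 to 36.1 TPM in the others), Zfp68 at 54.0 TPM in WT replicate 1 (57.3 to 57.8 TPM), and Zfp462 at 10.9 TPM in WT replicate 1 (9.82 to 9.995 TPM). Zfp87 stood at 10.96 TPM in iKO replicate 2 (9.36 to 9.47 TPM). Zfp229, a KRAB gene that was lower in iKO in all 5 settings (-0.74, limma adjusted p = 0.013), stood at 4.64 TPM in WT replicate 2 and at 8.80 to 9.63 TPM in the other WT libraries. That library lay within the iKO range of 3.43 to 5.14 TPM. Outside the members, Chd4 stood at 57.1 TPM in iKO replicate 2 (51.1 to 52.0 TPM in the others).

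Among members not called, Zfp143 stood at 16.9 TPM in WT replicate 2 (18.3 to 18.5 TPM), Zfp423 at 12.7 TPM in iKO replicate 2 (6.74 to 7.33 TPM), Zfp746 at 8.83 TPM in iKO replicate 3 (7.76 to 7.92 TPM) and Zfp777 at 3.93 TPM in WT replicate 4 (5.87 to 6.23 TPM).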

How the results depend on the processing

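The count of called members was 119 to 132 when each library was left out (33 to 38 higher, 85 to 97 lower). That was 42.3% to 47.0% of members, beside 48.6% to 49.9% of all genes tested. With a replicate block the count was 122 (43.4%, beside 49.3%). No pairing by replicate number was seen in the values. Correlations of deviations ran from -0.0445 to 0.000694 for same-numbered libraries and from -0.0347 to 0.0429 for the others. Whether same-numbered libraries shared an origin cannot be read from these values. Other pseudocounts, filters and weights kept the count within 1.5 times. The background moved with the filter. Without a filter 125 members were called (44.5%), beside 32.2% of all 29490 genes then tested. Among protein-coding genes with a mean of at least 5 TPM that share was 54.6%. Higher members numbered 60 with quantile normalization, 62 with the length and GC trend removed and 68 in the authors' deposited table. The other C2H2 families gave 15 calls after that trend was removed (39.5%, beside 51.1% of all genes tested). The CCR4-NOT list gave 2 to 4 calls when each library was left out. The members' median was -0.004 with trimmed mean factors, 0.016 with quantile normalization, 0.018 with the trend removed, 0.004 in the authors' deposited table, -0.046 with the sex score, and -0.089 to -0.052 without each library in turn; the cause was not tested.

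With the sex score as a covariate limma called 2 members (0.712%, beside 2.58% of all genes tested), 1 higher and 1 lower. Both have KRAB (Zfp963 and Zfp970). An unadjusted p under 0.05 was found for 31 members, and its share over all genes was not counted. This fit called 0 members without KRAB (7 at an unadjusted p under 0.05) and 0 CCR4-NOT genes (1 at an unadjusted p under 0.05). It called 1 corepressor gene (4.17%) and 1 gene of the other families (2.63%). Ash2l was at -1.07 and not called. Since the score separates the groups, it and the genotype cannot be told apart in this fit. Signs turned with the score for Zfp365 (0.04), Zfp428 (-0.01), Zfp536 (0.15), Zfp638 (0.15), Zfp68 (0.14) and Zfp975 (-0.10), none of which was called there. In the authors' deposited table signs turned for Zfp148 (0.11), Zfp236 (0.00), Zfp26 (0.17), Zfp260 (0.01), Zfp397 (0.09), Zfp41 (0.03), Zfp445 (0.06), Zfp68 (0.15), Zfp87 (0.07), Zfp946 (0.16) and Zfp991 (-0.15), and with the trend removed for Zfp397 (0.10). A KRAB pattern in the longest coding transcript alone, an alternative added after seeing the data, gave 77 called members with KRAB and 57 without. The sizes of these classes are not given here, so the counts cannot be set beside the 52.6% of all genes tested. A KRAB class from gene descriptions was not run. TPM keep no depth, so counting error of low members could not be given.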
